A study of Mus musculus with 19 samples.

Results

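The 10 genes described here, Sgk1, Plin4, Fkbp5, Tsc22d3, Zbtb16, Pdk4, Nfkbia, Errfi1, Sult1a1 and Map3k6, are genes that glucocorticoid hormones are known to raise, out of 53801 genes counted in each library. They were chosen by their levels in brains expressing poly(PR) or poly(GR) relative to GFP controls in these same libraries. Their differences from controls are therefore a description with no test. All 10 passed the filter on low counts in both cohorts.

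Glucocorticoids, corticosterone in the mouse, enter cells and bind the glucocorticoid receptor, which is held in the cytoplasm by a chaperone complex built on HSP90. The bound receptor moves to the nucleus, where it binds DNA at paired copies of a short arm, the glucocorticoid response element, and raises nearby genes. Of these genes, Fkbp5 feeds back on the pathway itself, through a co-chaperone that lowers the receptor's affinity for hormone. Tsc22d3 (GILZ) and Nfkbia (IκBα) make inhibitors of inflammatory transcription. In the brain the receptor is abundant in hippocampal and cortical neurons and in glia, and circulating hormone follows the time of day and stress.

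RNA was sequenced from homogenates of hippocampus and cortex of C57BL/6 mice aged 3 months. On postnatal day 0 pups had received an injection into each cerebral ventricle of 2 µl of adeno-associated virus AAV1. The virus carried GFP alone, GFP with 50 proline-arginine repeats, poly(PR), or GFP with 100 glycine-arginine repeats, poly(GR), dipeptide repeat proteins that arise from the expanded C9orf72 repeat in inherited ALS and frontotemporal dementia. The 7 poly(PR) mice (4 female, 3 male) were set against 4 GFP mice of their own harvest (3 female, 1 male), and the 4 poly(GR) mice (3 female, 1 male) against 4 GFP mice of theirs (2 female, 2 male). All mice, controls included, therefore carried the virus and GFP. The labels name neither the promoter that drove the transgene nor the hour at which the mice were killed, and no hormone was measured.

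Promoter sequence was available for 9 of the 10 genes, all but Zbtb16, in 17 windows that run from 250 bases before a transcription start to 50 after it (RefSeq, GRCm38.p6). Both strands were searched for an arm of the glucocorticoid response element, AGAACA or its complement TGTTCT. It was present in 5 of the 17 windows and in the promoters of 3 of the 9 genes, Sgk1, Sult1a1 and Tsc22d3. Over all promoters available, 18.97% of 32851 windows and 21.3% of 27025 genes held it. The 9 genes have more windows per gene than genes at large, and so more places for a match per gene. The full palindrome, AGAACA then 3 bases then TGTTCT, was in 1 of the 17 windows, at Sgk1, and in 3 of the 32851. A looser form keeps only a G, any base, ACA, 3 bases, TGT, any base and a C. It overlaps the full palindrome at Sgk1, was found once more at Map3k6, and occurred in 0.475% of all windows. The stretches below lie upstream of the start and are shown because they hold these matches, which are in capitals. They are descriptions of letters, not of receptor binding.
Sgk1, chr10:21993640-21993759, plus strand: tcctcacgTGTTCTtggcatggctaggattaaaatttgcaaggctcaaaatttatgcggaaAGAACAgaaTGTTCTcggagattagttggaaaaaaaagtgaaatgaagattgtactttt
Tsc22d3, chrX:140600658-140600737, minus strand: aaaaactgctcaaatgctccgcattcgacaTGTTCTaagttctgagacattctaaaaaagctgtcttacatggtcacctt
Sult1a1, chr7:126676419-126676660, minus strand: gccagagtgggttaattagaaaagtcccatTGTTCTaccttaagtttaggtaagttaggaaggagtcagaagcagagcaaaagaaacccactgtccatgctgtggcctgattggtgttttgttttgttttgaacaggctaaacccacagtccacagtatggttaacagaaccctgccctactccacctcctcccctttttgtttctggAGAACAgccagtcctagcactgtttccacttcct
Map3k6, chr4:133240607-133240686, plus strand: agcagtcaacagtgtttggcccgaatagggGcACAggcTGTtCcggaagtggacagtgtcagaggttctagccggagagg
In the Sgk1 stretch the palindrome begins 189 bases before the start, and another arm lies 242 bases before it. The Tsc22d3 arm lies 185 bases before its start, the Sult1a1 arms 212 and 34 bases before theirs, and the looser match at Map3k6 begins 181 bases before its start. Sgk1 has other start sites, and 2 of its other windows hold 1 arm each.

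Reads assigned to genes ran from 26934239 to 47648711 per library, and mitochondrial genes took 3.72% to 6.34% of them. Levels below are CPM, the gene reads of a library scaled to a common size by TMM over all 19 libraries. Map3k6 had the lowest median, 167 reads per library (111 to 215), and Plin4 the lowest single library, at 54 reads (54 to 922, median 193), while Sgk1 had 1364 to 4778. Fewer cells of a type and less RNA per cell cannot be told apart in homogenate.

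Every one of the 10 genes had a fitted log2 fold change below 0 in both cohorts. In poly(PR) the median was -0.50 and the fold from 1.27 to 2.81 lower than GFP controls, and in poly(GR) the median was -0.36 and the fold from 1.03 to 1.98 lower. Across all genes tested the median log2 fold change was 0.01 and 0.00, with 48.9% of 19156 genes and 49.0% of 18511 genes below 0. The fitted value was further below 0 in poly(PR) than in poly(GR) for 9 of the 10, all but Map3k6. That difference between cohorts was not tested.

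**Figure D1:**
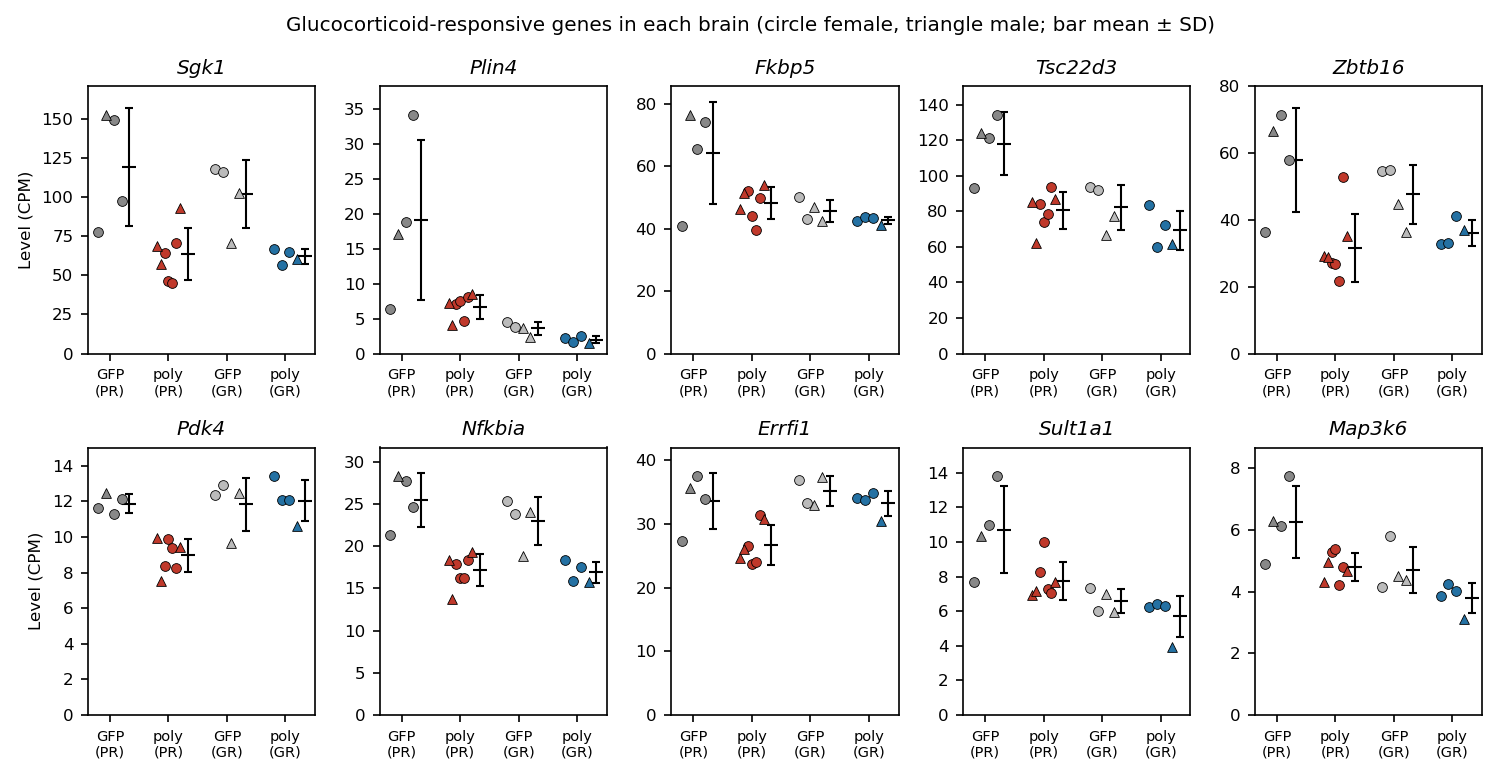
Level in CPM of the 10 genes in each library, by group; GFP (PR) and GFP (GR) are the controls of the poly(PR) and poly(GR) harvests, circles are females, triangles males, and bars mean ± SD (n = 4, 7, 4 and 4). Nfkbia in poly(PR) lay between 13.8 and 19.3 CPM, below all of its controls, and Pdk4 lay below all of its controls in poly(PR) and overlapped them in poly(GR).

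The genes that restrain the receptor or inflammatory transcription come first. Nfkbia (ENSMUSG00000021025, GRCm38 chromosome 12, 55489410 to 55492647) makes the inhibitor that holds NF-kB in the cytoplasm. Its level was 21.3, 28.3, 27.7 and 24.7 CPM in the GFP controls of the poly(PR) harvest and 13.8 to 19.3 CPM, median 17.9, in the 7 poly(PR) brains. The other cohort had 25.3, 23.8, 18.8 and 24.0 CPM in its GFP brains, against 18.3, 15.9, 17.6 and 15.7 CPM with poly(GR). In both cohorts each treated brain lay below each control. The log2 fold change was -0.58 (SE 0.10) with poly(PR) and -0.49 (SE 0.09) with poly(GR).

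Tsc22d3 (ENSMUSG00000031431, chromosome X, 140539528 to 140600659) makes GILZ, a leucine zipper protein that carries part of the anti-inflammatory action of glucocorticoids. Its controls in the poly(PR) harvest were at 93.2, 124, 121 and 135 CPM, and the poly(PR) brains at 62.2 to 93.9 CPM with a median of 84.0. Of those 7, 6 lay below every control. For the poly(GR) cohort, GFP brains stood at 93.5, 92.0, 66.7 and 77.5 CPM and treated brains at 83.5, 60.1, 72.5 and 61.5 CPM, so the groups overlapped. The log2 fold changes were -0.55 (SE 0.12) and -0.32 (SE 0.09).

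Fkbp5 (ENSMUSG00000024222, chromosome 17, 28399094 to 28517527) is the co-chaperone gene most often used as a readout of receptor activity. It stood at 41.0, 76.6, 65.6 and 74.1 CPM in the poly(PR) controls and at 39.5 to 53.9 CPM, median 49.9, in poly(PR). Control replicate 1 was lower than all but 1 of the poly(PR) brains, whereas the other 3 controls were above all 7. Its log2 fold change was -0.45 (SE 0.14), and -0.60 without that control. Poly(GR) controls were at 50.3, 43.0, 46.8 and 42.6 CPM and the treated brains at 42.4, 43.7, 43.5 and 41.1 CPM. The difference there was small, at -0.12 (SE 0.06), and the groups overlapped.

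Kinases and signalling regulators follow. Sgk1 (ENSMUSG00000019970, chromosome 10, 21882184 to 21999903) makes a serine/threonine kinase that acts on ion channels and transporters. Its poly(PR) controls were at 77.6, 153, 149 and 97.3 CPM and the poly(PR) brains at 44.9 to 92.8 CPM, median 64.1. Only poly(PR) replicate 7, the highest, was above a control. In the second cohort 118, 116, 70.7 and 103 CPM in controls stood above 66.6, 56.4, 65.2 and 60.7 CPM in poly(GR), with no overlap. The log2 fold change was -0.98 (SE 0.19) with poly(PR) and -0.77 (SE 0.11) with poly(GR), which are 1.97-fold and 1.71-fold lower levels.

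Errfi1 (ENSMUSG00000028967, chromosome 4, 150853919 to 150868892) makes MIG6, a feedback inhibitor of the EGF receptor. It was at 27.3 to 37.5 CPM in the poly(PR) controls and 23.7 to 31.4 CPM in poly(PR), with 5 of 7 treated brains below every control (log2 fold change -0.34, SE 0.10). Ranges in the poly(GR) cohort were 32.9 to 37.4 and 30.4 to 34.8 CPM (-0.11, SE 0.07). Map3k6 (ENSMUSG00000028862, chromosome 4, 133240818 to 133252929), of the ASK family of stress-activated kinases, was at 4.88 to 7.74 CPM in controls and 4.22 to 5.39 CPM in poly(PR) (-0.37, SE 0.13). It was at 4.16 to 5.80 CPM and 3.10 to 4.23 CPM in the poly(GR) cohort (-0.40, SE 0.13). Both genes overlapped between treated and control brains in both cohorts.

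Of the metabolic genes, Plin4 (ENSMUSG00000002831, chromosome 17, 56100591 to 56109803), which makes a lipid droplet coat protein, had the largest fold of the 10 in both cohorts. Its poly(PR) controls were at 6.41, 17.0, 18.8 and 34.1 CPM and the poly(PR) brains at 4.02 to 8.45 CPM, median 7.21. Control replicate 1 lay inside the range of the treated brains, and the other 3 controls were at least 17.0 CPM. In the poly(GR) cohort the controls were at 4.53, 3.86, 3.60 and 2.35 CPM and the treated brains at 2.24, 1.69, 2.52 and 1.47 CPM. The log2 fold change was -1.49 (SE 0.35) with poly(PR), -1.07 without control 4 and -1.76 without control 1. With poly(GR) it was -0.99 (SE 0.17).

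Pdk4 (ENSMUSG00000019577, chromosome 6, 5483351 to 5496309) makes a kinase that shuts pyruvate dehydrogenase and so spares glucose. It was at 11.7, 12.5, 11.3 and 12.1 CPM in the poly(PR) controls and at 7.52 to 9.95 CPM, median 9.40, in poly(PR), with no overlap (log2 fold change -0.41, SE 0.10). GFP brains of the poly(GR) harvest were at 12.4, 12.9, 9.65 and 12.5 CPM, and the treated ones at 13.4, 12.1, 12.1 and 10.6 CPM. The means there were 11.8 ± 1.48 CPM (SD, n = 4) and 12.045 ± 1.15 CPM (SD, n = 4), so the treated mean was the higher. With sex in the fit the log2 fold change was -0.04 (SE 0.09). It was below 0 in 13 of 17 alternative fits and highest, at 0.09, with the mitochondrial share as covariate.

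Sult1a1 (ENSMUSG00000030711, chromosome 7, 126672865 to 126676432) makes a phenol sulfotransferase. It was at 7.71 to 13.8 CPM in the poly(PR) controls and 6.91 to 10.004 CPM in poly(PR) (-0.44, SE 0.15), and at 5.97 to 7.34 CPM and 3.92 to 6.39 CPM in the poly(GR) cohort (-0.31, SE 0.14). Sgf29, on the other strand, shares 4.05% of its exonic bases. The counts keep no strand, so reads there may be left out as ambiguous rather than counted for either gene. In the 14 tables with 4 columns, 5.91% to 8.56% of reads were left out as ambiguous. For Plin4 the shared part of the exonic bases is 0.294%, with Hdgfl2, and the other 8 genes share no exonic base.

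Zbtb16 (ENSMUSG00000066687, chromosome 9, 48654297 to 48836222) makes the zinc finger transcription factor PLZF. Its poly(PR) controls were at 36.3, 66.6, 71.5 and 57.8 CPM, and the poly(PR) brains at 21.6 to 52.9 CPM with a median of 29.0. Replicate 6, at 52.9 CPM, was the only poly(PR) brain above a control, and the other 6 were at most 35.1 CPM. In the poly(GR) cohort the GFP brains held 54.5, 54.9, 44.7 and 36.4 CPM and the treated ones 32.7, 33.1, 41.0 and 37.0 CPM, and the groups overlapped. The log2 fold changes were -0.88 (SE 0.23) and -0.45 (SE 0.11).

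**Figure D2:**
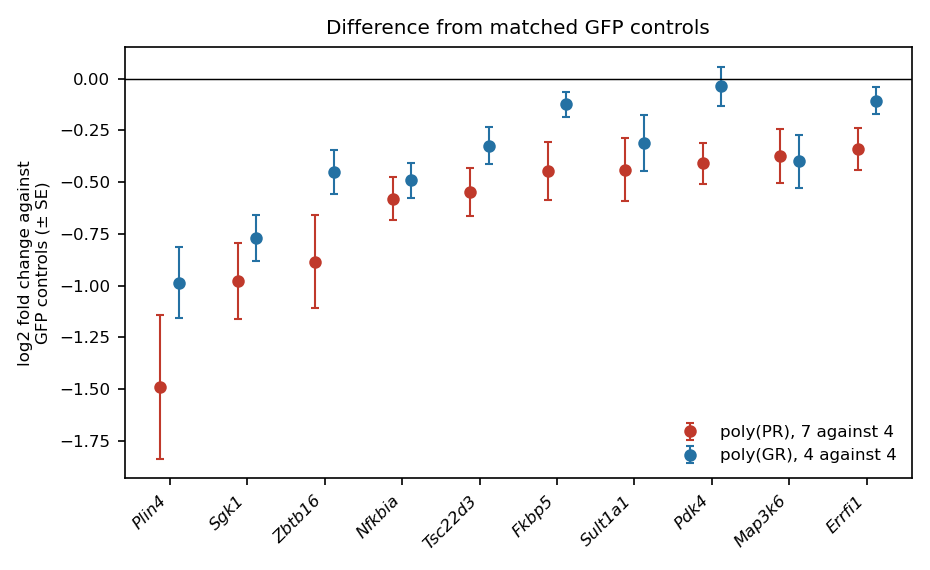
Fitted log2 fold change (± SE) of the 10 genes against GFP controls of the same harvest, with sex in the model; red, 7 poly(PR) against 4 controls, and blue, 4 poly(GR) against 4 controls. All points lie below 0, from -1.49 for Plin4 with poly(PR) to -0.04 for Pdk4 with poly(GR).

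Calls over all genes are given here as context and nothing is read from them, because these contrasts chose the genes. At a Benjamini-Hochberg adjusted p of 0.05 from edgeR, 0 of the 10 were called with poly(PR), against 0.0574% of all genes called in either direction and 0.0209% called lower. All 10 had an unadjusted p under 0.05, as did 14.9% of all genes, and DESeq2 called 6, and 1.98% of all genes. With poly(GR), 3 of the 10 (Sgk1, Plin4 and Nfkbia) were called, against 0.173% of all genes in either direction and 0.0918% called lower. Of the 10, 7 had an unadjusted p under 0.05, as did 11.5% of all genes, and DESeq2 called 4 (these 3 and Zbtb16), and 0.792% of all genes. Without poly(GR) control replicate 1 the count was 0, in a fit that called 0 of all genes. Without poly(GR) control replicate 2 it was 0, against 0.0962% of all genes. It was 1 (Sgk1) without poly(GR) replicate 1, 2 or 3, against 0.145%, 0.123% and 0.186% of all genes. For poly(PR) it was 6 without poly(PR) replicate 6, a fit that called 3.26% of all genes. Each treated brain lay below each control for 2 of the 10 in poly(PR), Pdk4 and Nfkbia, against 1.13% of all genes, and for 2 of the 10 in poly(GR), Sgk1 and Nfkbia, against 2.29%.

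Some tissue markers differed between treated and control brains in both cohorts. Of all genes, edgeR called 0.0574% with poly(PR) and 0.173% with poly(GR), and DESeq2 1.98% and 0.792%. An unadjusted p under 0.05 was found for 14.9% and 11.5% of all genes. The summed level of 6 genes of striatal medium spiny neurons was 701 to 856 CPM in the poly(PR) controls and 973 to 1493 CPM in poly(PR), and 748 to 915 against 995 to 1141 CPM in the poly(GR) cohort, with all 6 genes above 0 in both. Of these, edgeR called Rgs9, Adora2a and Drd1 higher with poly(GR) and 0 with poly(PR), where 5 had an unadjusted p under 0.05, and DESeq2 called 6 and 5. The 7 choroid plexus markers summed to 136 to 379 CPM in the poly(GR) controls and 15.1 to 131 CPM in poly(GR), with all 7 lower and 5 called (Folr1, Tmem72, Kl, F5 and Kcne2). In the poly(PR) cohort that sum was 56.0 to 172 CPM in controls and 11.2 to 529 CPM in treated brains. The sum of 5 neuronal markers was 5591 to 6641 CPM in poly(PR) controls and 4672 to 5687 CPM in poly(PR), where edgeR called 0 of them, 4 had an unadjusted p under 0.05, all lower, and DESeq2 called Snap25 and Slc17a7 lower. The sum of 5 astrocyte markers was 1578 to 1928 CPM in the poly(GR) controls and 1807 to 2113 CPM in poly(GR), where edgeR called 0, 3 had an unadjusted p under 0.05, all higher, and DESeq2 called Gja1 and Slc1a3 higher.

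With the striatal sum as a covariate all 10 genes stayed below 0 in poly(PR), with Nfkbia at -0.50, Sgk1 at -0.69 and Tsc22d3 at -0.45. Zbtb16 then moved from -0.88 to -0.14 and Errfi1 from -0.34 to -0.14, while Map3k6 moved from -0.37 to -0.56. With the choroid plexus sum as a covariate in poly(GR), Sgk1 moved from -0.77 to -1.03, Tsc22d3 from -0.32 to -0.64 and Zbtb16 from -0.45 to -0.80. Under that covariate Errfi1 was at 0.10 and Sult1a1 at 0.18. Because treated and control brains do not overlap in these sums, they and the treatment cannot be told apart. Endothelial sums overlapped in both cohorts, at 223 to 238 and 217 to 300 CPM in the poly(PR) cohort and 188 to 251 and 194 to 231 CPM in the poly(GR) cohort. Oligodendrocyte sums also overlapped, at 2898 to 4007 and 2678 to 3744 CPM, and at 2944 to 3605 and 2602 to 3574 CPM. So did neuronal sums with poly(GR), at 6647 to 7031 and 6284 to 6955 CPM, and astrocyte sums with poly(PR), at 1574 to 1905 and 1739 to 1903 CPM. Sums of 5 microglial markers overlapped at 190 to 201 and 188 to 221 CPM, and at 199 to 240 and 228.5 to 245 CPM. Of these 5, 3 were higher with poly(PR) and 5 with poly(GR), and 0 were called by either tool.

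The GFP controls of the 2 harvests, which share virus, age and strain, differed from each other in some of the genes. Plin4 was 5.32-fold higher in the controls of the poly(PR) harvest, at 19.1 ± 11.4 CPM (SD, n = 4), than in those of the poly(GR) harvest, at 3.59 ± 0.911 CPM (SD, n = 4), with no overlap. All but 1 of the poly(PR) brains lay above the highest poly(GR) control, at 4.53 CPM. Sult1a1 was 1.63-fold higher, again with no overlap, and Tsc22d3, Fkbp5 and Map3k6 were 1.43-fold, 1.41-fold and 1.33-fold higher with overlapping ranges. For Sgk1, Zbtb16, Pdk4, Nfkbia and Errfi1 the means differed by less than the larger SD. The count tables of 3 of the 4 poly(GR) controls have another layout. The remaining one, replicate 2, has the layout of the poly(PR) harvest, and its Plin4 (3.86 CPM) and Sult1a1 (5.99 CPM) lay within the range of those 3 and below all 4 poly(PR) controls. Replicate 2 is a single library, and the part of the layout in these differences was not tested.

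Per kilobase of exon, the order of the 10 genes in the poly(PR) controls ran from Tsc22d3 (27.2 ± 4.07 CPM per kb, SD, n = 4) and Sgk1 (24.3 ± 7.66) through Nfkbia (15.8 ± 1.98), Zbtb16 (10.99 ± 2.94), Errfi1 (9.37 ± 1.24), Sult1a1 (7.11 ± 1.66) and Fkbp5 (6.79 ± 1.72) to Pdk4 (3.39 ± 0.15), Plin4 (3.30 ± 1.98) and Map3k6 (1.36 ± 0.254). Neighbours that differed by less than the larger SD were Tsc22d3 and Sgk1, Zbtb16 and Errfi1, Sult1a1 and Fkbp5, and Plin4 with either Pdk4 or Map3k6. In the poly(GR) controls Sgk1 came first at 20.8 ± 4.47 CPM per kb (SD, n = 4) and Plin4 last at 0.621 ± 0.158.

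Other genes that glucocorticoids are known to raise were measured next. The list was chosen with earlier results of these data known, so its counts are given as a description. Of 42 such genes outside the 10, 29 had log2 fold changes below 0 with poly(PR), against 48.9% of all genes, and the median was -0.17. None of the 42 passed edgeR's adjusted threshold (0 called, against 0.0574% of all genes). At an unadjusted p under 0.05 there were 18 (42.9%), 17 of them lower, against 14.9% of all genes. DESeq2 called 6, all lower, against 1.98% of all genes. Smallest in p were Arl4d, an Arf-like GTPase gene, at -0.66 (SE 0.14, edgeR adjusted p = 0.109), and Plekhf1, an endosomal adaptor gene, at -0.65 (SE 0.14, edgeR adjusted p = 0.114). Next were Ddit4, an inhibitor of mTORC1 signalling, at -0.39 (SE 0.09, edgeR adjusted p = 0.126), and the GTPase gene Rhou at -0.34 (SE 0.08, edgeR adjusted p = 0.137).

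With poly(GR) 41 of the 42 were tested (Lcn2 was too low). Of these, 26 had values below 0, against 49% of all genes, and the median was -0.08. Again 0 were called by edgeR, against 0.173% of all genes. At an unadjusted p under 0.05 there were 9 (21.95%), 8 of them lower, against 11.5% of all genes. DESeq2 called 1, Plekhf1, against 0.792% of all genes. Plekhf1 was at -0.68 (SE 0.13, edgeR adjusted p = 0.0794), close to its value with poly(PR). The arrestin-domain gene Arrdc2 was at -0.33 (SE 0.08, edgeR adjusted p = 0.135), Rhou at -0.21 (SE 0.05, edgeR adjusted p = 0.146) and the transcriptional repressor gene Bcl6 at -0.21 (SE 0.06, edgeR adjusted p = 0.239). Chosen after their values were seen, Dusp1, which encodes a MAP kinase phosphatase and is also an immediate early gene, was at -0.67 (SE 0.19) with poly(PR) and 0.18 (SE 0.27) with poly(GR), and the metallothionein gene Mt2 at 0.59 (SE 0.26) and 0.36 (SE 0.26).

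**Figure D3:**
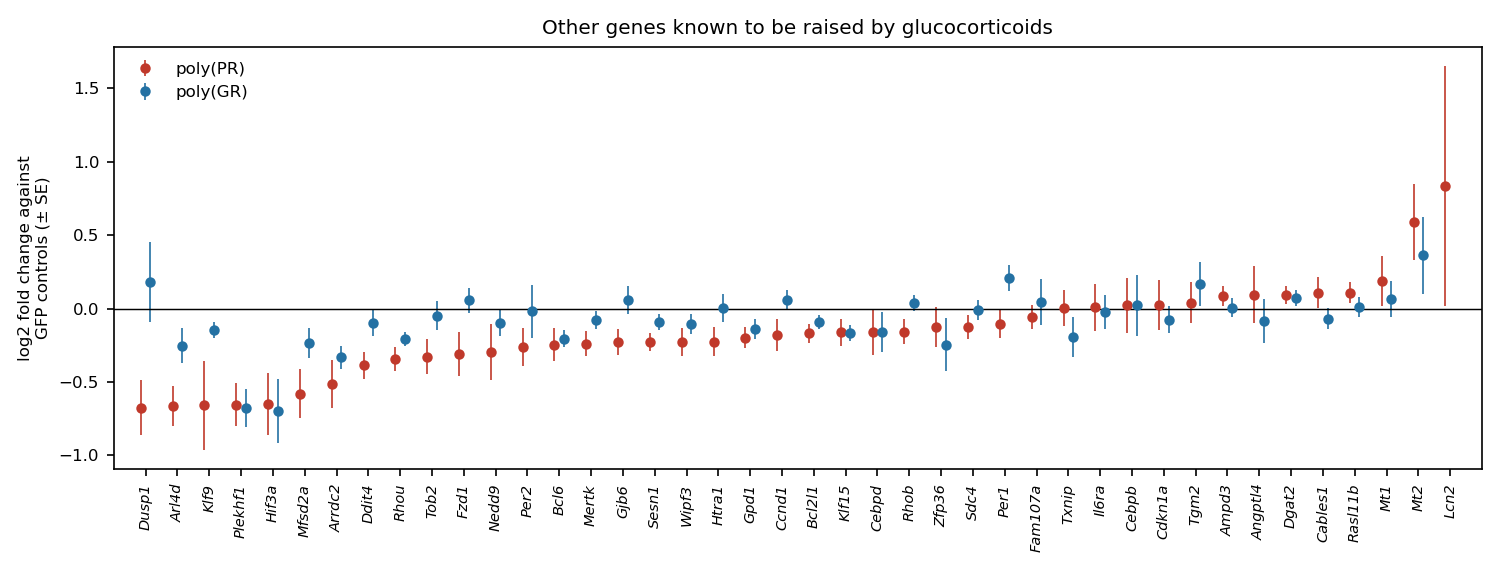
Fitted log2 fold change (± SE) against GFP controls of 42 other genes known to be raised by glucocorticoids, ordered by the poly(PR) value; red poly(PR), blue poly(GR), for which Lcn2 was not tested. With poly(PR) 29 of 42 lie below 0, against 48.9% of all genes, and with poly(GR) 26 of 41, against 49%.

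Genes of the receptor and the hormone axis were described next. Of 18 tested, 14 were below 0 with poly(PR) and 11 with poly(GR), at medians of -0.17 and -0.03. Among all genes 48.9% and 49% were below 0. By edgeR 0 were called in either cohort, against 0.0574% and 0.173% of all genes. An unadjusted p under 0.05 was found for 2 (11.1%) and 3 (16.7%), near the 14.9% and 11.5% of all genes. DESeq2 called 0 and 1, against 1.98% and 0.792% of all genes. The glucocorticoid receptor gene Nr3c1 and the mineralocorticoid receptor gene Nr3c2, which are named for their role, were at -0.29 (SE 0.18) and -0.20 (SE 0.14) with poly(PR), and at -0.02 (SE 0.08) and 0.03 (SE 0.08) with poly(GR). In poly(PR) the smallest p values belonged to the chaperone gene Hspa8 (-0.16, edgeR adjusted p = 0.309), Hsd11b1, whose enzyme regenerates active hormone (-0.19, edgeR adjusted p = 0.317), the corepressor gene Ncor1 (-0.29, edgeR adjusted p = 0.363) and the HSP90 gene Hsp90ab1 (-0.17, edgeR adjusted p = 0.376). In poly(GR) the co-chaperone gene Ptges3 (-0.21, edgeR adjusted p = 0.192) was among them, with the HSP90 gene Hsp90aa1 (-0.13, edgeR adjusted p = 0.405) and Crhbp, whose protein binds corticotropin-releasing hormone (-0.15, edgeR adjusted p = 0.564).

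Several of the 10 genes also answer to other signals, so lists for these were described beside them. Their counts stand against the shares of all genes given above, 14.9% and 11.5% at an unadjusted p under 0.05 and 1.98% and 0.792% by DESeq2. A list of 15 circadian clock genes had medians of -0.05 with poly(PR) and 0.00 with poly(GR), with 0 called by edgeR and 3 and 0 at an unadjusted p under 0.05. The clock genes Per1 and Per2, named for that role, were counted among the 42 other glucocorticoid genes instead. Per1 was at -0.11 (SE 0.09) with poly(PR) and 0.21 (SE 0.09) with poly(GR), and Per2 at -0.26 (SE 0.13) and -0.02 (SE 0.18). The 10 genes of the NF-kB pathway, which also drives Nfkbia, had medians of 0.04 and 0.03, with 0 called by edgeR and 2 and 0 at an unadjusted p under 0.05. For 10 genes of fasting and PPAR signalling, which drive Pdk4 in liver and muscle, 9 were above 0 with poly(PR) and 10 with poly(GR), at medians of 0.09 and 0.07, again with 0 called by edgeR and 2 and 1 at an unadjusted p under 0.05. In these 3 lists DESeq2 called the clock gene Bhlhe40 (lower) and Plin2 (higher) with poly(PR), and 0 with poly(GR). The 11 immediate early genes, which neurons transcribe on stimulation, were all below 0 with poly(PR), at a median of -0.72, with 0 called by edgeR, 7 by DESeq2 and 10 at an unadjusted p under 0.05. With poly(GR) 10 of the 11 were above 0, at a median of 0.25, with 0 called by either tool and 0 at an unadjusted p under 0.05. The part of these lists in the values of the 10 genes was not tested.

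Male and female brains were compared over all 19 libraries with the 4 groups in the fit, a contrast that did not choose the genes. By edgeR 0 of the 10 passed the adjusted threshold and 0 had an unadjusted p under 0.05, against 0.0316% of 19001 genes called and 15% at an unadjusted p under 0.05. DESeq2 also called 0, and 0.737% of all genes. The value was below 0 in males for 8 of the 10 and above 0 for Sgk1 (0.12, SE 0.15) and Fkbp5 (0.07, SE 0.09). Furthest from 0 were Plin4 at -0.26 (SE 0.24, edgeR adjusted p = 0.601) and Sult1a1 at -0.21 (SE 0.11, edgeR adjusted p = 0.372).

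Brains of 1 group differed among themselves, and these deviations from the group mean are separate from the contrasts that chose the genes. Over 45 pairs of the 10 genes, 42 had a correlation of within-group deviations above 0 across the 19 libraries, with a median r of 0.52. The highest were Tsc22d3 with Nfkbia (r = 0.86) and Sgk1 with Nfkbia (r = 0.83), and the lowest Zbtb16 with Pdk4 (r = -0.13). Against the mean of the other 9, r ran from 0.28 for Pdk4 to 0.83 for Plin4. These are descriptions, and the points share each library's depth and scaling. GFP control replicate 1 of the poly(PR) harvest stood apart, below its group's mean in all 10 genes, with a mean standardised deviation of -1.92 against a size of at most 0.866 in any other library. Without it 36 of the 45 pairs were above 0 and the median r was 0.30.

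**Figure D4:**
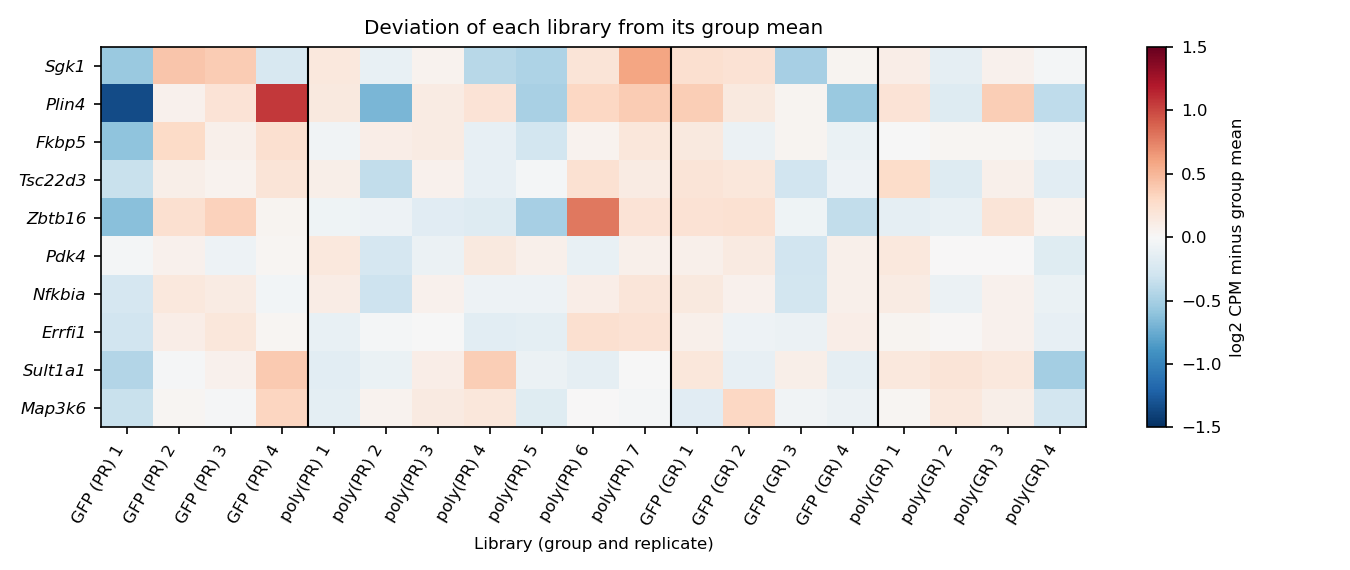
Deviation of each library from its group's mean log2 CPM for the 10 genes, with libraries in columns and black lines between groups; red is above and blue below the mean. GFP (PR) replicate 1 was below its group's mean in all 10 genes, by 0.61 on the log2 scale for Fkbp5.

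Fkbp5 was set against each of the other 9 genes by permutation of deviations within groups. Pearson's r was 0.73 for Plin4, 0.71 for Errfi1, 0.65 for Zbtb16 and 0.60 for Sgk1, with Spearman's rho of 0.52, 0.66, 0.58 and 0.52. It was 0.52 for Sult1a1, 0.51 for Map3k6, 0.44 for Tsc22d3, 0.43 for Nfkbia and -0.10 for Pdk4. None passed after Benjamini-Hochberg adjustment over the 9: the lowest permutation p was 0.00914, for Errfi1 (adjusted p = 0.062), and for rho it was 0.0097 (adjusted p = 0.0873). Without the 2 libraries farthest in Fkbp5, GFP control replicate 1 of the poly(PR) harvest and poly(PR) replicate 5, r ran from -0.22 to 0.40. Leaving out the extremes of Fkbp5 narrows its range, which by itself lowers r. The part of those 2 brains therefore cannot be told from these values.

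Within the poly(PR) cohort r with Fkbp5 ran from -0.11 to 0.76 over 11 libraries, and the lowest adjusted permutation p was 0.0681. Within the poly(GR) cohort 1 gene passed over 8 libraries, Sult1a1 (r = 0.65, exact permutation p = 0.00174, the smallest that its 576 arrangements can give, adjusted p = 0.0156; rho = 0.74, exact permutation p = 0.00347, adjusted p = 0.0313). There r for Sgk1 and Nfkbia was -0.07 and 0.01. The adjustment covered the 9 genes within that cohort and not the other sets of libraries. Fkbp5 lay between 41.1 and 43.7 CPM in the poly(GR) brains. The lowest of these in Fkbp5, replicate 4, was also 0.51 below its group's mean in Sult1a1 on the log2 scale.

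Among 12801 other genes with a mean log2 CPM of at least 1, those most like the 10 in these deviations were ranked by r with their mean standardised deviation. Bcl6 came first (r = 0.87), followed by the adiponectin receptor gene Adipor2 (r = 0.86), the nucleolar methyltransferase gene Rrp8 (r = 0.84), Ifrd1, a transcriptional co-regulator (r = 0.84), and the alanine aminotransferase gene Gpt2 (r = 0.84). Plekhf1 (r = 0.82), the Myc antagonist gene Mxi1 (r = 0.81), the melanocortin receptor gene Mc4r (r = 0.81), the Rab regulator gene Rin2 (r = 0.80) and Smim3 (r = 0.79) completed the 10. The median over all genes compared was 0.03 and the 95th percentile 0.47. Without the GFP control that stood apart, 3 of these 10 genes (Adipor2, Rrp8 and Plekhf1, at r of 0.87, 0.84 and 0.83) were still among the first 10, Bcl6 was at r = 0.78, and Smim3 was lowest of them at r = 0.58. Bcl6 and Plekhf1 are also on the list of 42 described above. Genes of that list that were ranked here ran from r = 0.87 down to r = -0.35. The mean deviation of the 10 genes had r of -0.26 with the mitochondrial share of reads and -0.17 with gene reads, over the same 19 libraries. Its r was -0.50 with the sum of 5 blood markers, 0.42 with the clock sum and 0.38 with the neuronal sum. With the meningeal and striatal sums r was -0.36 and -0.31, and with the remaining sums it ran from -0.23 to 0.24. These values were not recomputed without the GFP control that stood apart.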

How the data were processed

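Each library's deposited table gives raw read counts per Ensembl gene, which the authors did not normalize. Per the submitters' processing notes, Trimmomatic 0.36 and STAR 2.5.2b were used, with builds mm10 and mm9 whose roles are not given; the annotation release is not given in the sources used here. Per the labels' protocols the libraries were stranded and paired-end, but the deposited counts split evenly by strand in the 14 tables with 4 columns (5 have 2), so the unstranded column was used. Lines naming no gene were left out of library sizes: in the 14 tables, 6.57% to 13.4% of reads lay on no gene. The repeat tables were not used.

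Gene symbols and positions are those of GENCODE M21, GRCm38 (53706 IDs matched, 95 did not). Testing used edgeR 4.0.16 under R 4.3.3 (TMM, filterByExpr, sex as covariate, Benjamini-Hochberg adjustment at 0.05), each cohort with its own controls, and DESeq2 1.42.0 as an alternative. Printed CPM are TMM-scaled over the 19 libraries, and log2 CPM used a prior count of 2. The SE of a log2 fold change is its size divided by the square root of its edgeR quasi-likelihood F statistic. Deviations were permuted within groups 100000 times, or exactly. The fits were tested on simulated counts. The 10 genes, the lists and the tests were chosen with earlier results of these data known. The genes named by rule were the 10, the called genes of each list, the 4 with smallest p on the list of other glucocorticoid genes and on the axis list, and the 10 most alike; names outside it are marked. The values of 1 gene of the axis list are not reported here. Samples are separate mice per the series' design. No 2 libraries of a group agreed within sampling noise. Alternatives were other scaling, DESeq2, no filter, no sex term, all libraries in 1 fit, covariates, table layouts and each replicate left out. Replicate numbers only name libraries. Counting precision follows from the reads per gene given in the text, and covers counting error only.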

Additional observations from a re-analysis of the deposited data

Results flagged for a closer look

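Of 40 gene and group combinations among the 10 genes, 4 had a brain far from the rest of its group by Dixon's test, which flags about 1 in 20 by chance. Zbtb16 was highest in poly(PR) replicate 6, at 52.9 CPM, with the next at 35.1 CPM. Sult1a1 was highest in poly(PR) replicate 4, at 10.004 CPM, with the next at 8.25 CPM, and lowest in poly(GR) replicate 4, at 3.92 CPM, with the next at 6.26 CPM. Pdk4 was lowest in poly(GR) control replicate 3, at 9.65 CPM, with the next at 12.4 CPM.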

How the results depend on the processing

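All 10 genes were below 0 with poly(PR) under each of 18 alternatives. With poly(GR) 7 to 10 of them were, over 17: 7 with 4-column tables (1 control), 8 with the choroid plexus covariate, and 9 without the sex term, with the mitochondrial share as covariate, with 2-column tables or without control 4. Counts of called genes moved more, and so did the share of all genes called. That share is given in brackets beside the counts of the 10 and of the 42. For the 10 with poly(PR) (0) the count was 6 with DESeq2 (1.98%), 4 without a filter (0.183%), 5 with all libraries in 1 fit (0.946%), 7 with the mitochondrial covariate (3.9%), and 0 to 6 leaving out 1 replicate (3.26% at the highest). For the 10 with poly(GR) (3) it was 4 with DESeq2 (0.792%) and 5 without a filter (1.46%). It was 0 without the sex term (0.0432%), with all libraries (0.00503%) and with 2-column tables (0.18%). The count was also 0 with the mitochondrial or choroid covariate, in fits that called 0 of all genes. Leaving out 1 replicate gave 0 to 2 (0% to 0.596%). Among the 42 other genes with poly(PR) (0) it was 6 with DESeq2 (1.98%), 1 without a filter (0.183%) and 2 with all libraries (0.946%). It was 8 with the mitochondrial covariate (3.9%), and 0 to 5 leaving out 1 replicate (5 without poly(PR) replicate 6, 3.26%). With poly(GR) (0) it was 1 with DESeq2 (0.792%), 3 without a filter (Per1 higher, 1.46%) and 0 to 1 leaving out 1 replicate (0% to 0.596%). Calls from the 4-column tables, which hold 1 control, are not counted here. Genes correlated with Fkbp5 (0 of 9) numbered 5 with sex removed, and 0 to 6 leaving out 1 replicate (6 without poly(PR) replicate 2). Ncor1 was at 0.18 with poly(PR) under the striatal covariate, and Crhbp at 0.063 with poly(GR) under the choroid covariate, both below 0 otherwise; the causes were not tested. The count of 0 between sexes held in all 25 alternatives. No paired analysis was possible because the labels number no replicates, and the numbers used here follow accession order. Depth limits Plin4 and Map3k6 most.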
